A study of Mus musculus with 12 samples.

Results

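The cadherins and protocadherins are described here in neurons of the mouse entorhinal cortex. Members were all array probes whose gene name in the scanner files begins with Pcdh, or with Cdh followed by a digit. This took in 114 of the 41174 probes that are not controls. Of them, 42 were cadherin and 72 protocadherin probes, and together they stand for 68 gene names. Testing was limited to probes that the scanner software flagged as well above background in 4 or more of the 6 readings that a region and genotype share. This left 40 member probes from 31 genes among 12987 kept probes.

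The neurons were cut out by laser capture, 500 per region, from Nissl-stained sections of the medial (MEC) and the lateral (LEC) entorhinal cortex. In each region, 3 Naglu-/- mice were compared with 3 Naglu+/- littermates, all females with a C57BL/6 background at 2 months of age. Naglu encodes a lysosomal enzyme that takes part in the breakdown of heparan sulfate, and its loss models Sanfilippo syndrome type B; the Naglu+/- controls keep 1 intact copy. Amplified RNA of a mutant and a control was hybridised together on dual-dye Agilent arrays, and each of the 6 pairs was run on 2 arrays with the dyes exchanged, so there are 12 arrays and 24 readings per probe. The sources used here do not tie an MEC pair to the mice of an LEC pair, and p-values measure only the spread between these pairs.

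Cadherins are transmembrane proteins that hold cells together through calcium-dependent binding of their extracellular repeats. Classical cadherins of type I and type II bind catenins inside the cell, and in the brain their combinations mark regions, layers and synaptic partners. The alpha, beta and gamma protocadherins lie in 3 neighbouring gene clusters and give single neurons a surface identity used in self-avoidance, while the delta protocadherins are single genes that are often expressed in one cortical area or layer and not in the next.

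The arrays limit these comparisons in several ways. All 6 MEC arrays were scanned in one session and all 6 LEC arrays in another, so that 0 of the 2 scan days held both regions and region and scan session cannot be told apart. In the green (Cy3) channel, 51.8% to 77.2% of member probes were well above background on MEC arrays, against 46.5% to 64.9% on LEC arrays. In the red (Cy5) channel the shares were 14.0% to 33.3% on MEC arrays and 23.7% to 30.7% on LEC arrays. The authors' value table matched 5 of the 6 LEC scanner files to another LEC sample's name than the labels do, and in replicate 2 of both regions its sign was opposite to the labelled dyes. The table's assignment was used. A level that averages both dyes does not depend on that sign, but every mutant ratio does. So does every level given for mutant or control channels alone. The detection filter counts readings by genotype, so the kept set depends on the sign as well. LEC pair means also depend on which file goes to which pair. Across all kept probes, the ratios of pairs 2 and 3 had a correlation of −0.58 in MEC and of −0.45 in LEC. Pair 1 had correlations with pairs 2 and 3 of 0.09 and 0.02 in MEC and of −0.07 and −0.02 in LEC. These values do not tell which of pairs 2 and 3 is turned, if either. The direction of replicate 2 is thus not settled, and ratios are also given with it turned as labelled. With the table's direction, the microglial marker Lyz2 had mean ratios of 1.78 in MEC and 1.77 in LEC, which no kept probe exceeded. How these change with replicate 2 turned was not tested. Naglu itself could not check the labels: its 2 probes were well above background in 0 and 12 of 24 readings, neither was kept, and their pair ratios lay between −0.05 and 0.09 on the log2 scale.

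Much of the family was read near background. Of the 114 member probes, 15 were well above background in all 24 readings and 10 in none, with a median of 9 readings, the same median as over all probes. Kept probes made up 35.1% of the members and 31.5% of all probes. The alpha cluster was the best read class, with 5 of 6 probes kept and a median of 23 readings. Among delta-2 protocadherins 6 of 11 probes were kept, among delta-1 protocadherins 5 of 10, among type I cadherins 4 of 9 and in the gamma cluster 4 of 10. The beta cluster had 8 of 29 probes kept, for 7 of its 22 genes, and type II cadherins had 6 of 26. The 37 genes without a kept probe include Cdh1 (E-cadherin) and Cdh5, the cadherin of vessel walls, and also Cdh6, Cdh9, Cdh10, Cdh12, Cdh18, Pcdh7 and Pcdh11x. Cdh10 had the most such probes, and none of its probes exceeded 12 of 24 readings. Their probes were left out of the main tests, and at this signal a difference in these genes could be missed. By region, the median number of readings well above background, of 12, was 11 in MEC and 12 in LEC for the alpha cluster and 9 in MEC and 10 in LEC for delta-2 protocadherins. It was 4 in MEC and 3 in LEC for the beta cluster, where most probes had 6 readings or fewer in either region.

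For 17 probes outside the kept set, a reading was well above background in one region and in none of the other: 16 were not well above background in LEC and 1 in MEC. Each rested on at most 4 of 12 readings, all of them in the Cy3 channel. In that channel 50.7% to 67.9% of all spots were well above background on MEC arrays, against 48.2% to 62.0% on LEC arrays. The share of all probes with this pattern was not computed, so the count is not read as a trait of the members. The bounds were small: the most for a gene dim in LEC was Cdh9, a type II cadherin, at least 1.08-fold higher in MEC (measured means 5.92 in MEC and 5.81 in LEC), and for Cdh7, by its dimmer probe, MEC was at least 1.01-fold lower (measured means 5.80 in MEC and 5.82 in LEC). A bound sets the mean of the brighter region against, per array, the higher of the lowest signal above background and the dim probe's own. For Cdh9 this value and the measured LEC mean were both 5.81. Its fold is therefore that of the measured means and makes no allowance for their spread.

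The level of each kept probe in MEC was compared with that in LEC. Levels are mean log2 intensities of both dyes after quantile normalisation between arrays, averaged per pair, with 3 pair means a region. Differences are MEC minus LEC and were tested with limma across all kept probes, with Benjamini-Hochberg adjustment. Of the 40 kept members, 14 passed an adjusted p of 0.05, against a background of 24.3% of all kept probes: 5 were higher in MEC (11.2% of all) and 9 lower in MEC (13.2% of all). The pair means of the regions did not overlap for 21 members, against 42.9% of all kept probes. The median difference was 0.01 for the members and −0.02 for all kept probes, and the median size 0.11 and 0.10. Among the 15 members well above background in every reading, 10 passed, against 39.0% of the 5582 probes read equally well, so the shares on both sides were higher at good signal.

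Passing the detection filter was tied to level for some members. It was met in both regions by 31 kept members, in MEC alone by 5, among them Pcdhb3 and Pcdhb4, and in LEC alone by 4, among them Cdh4. The filter largely fixes the direction of such calls: of all probes kept through MEC alone, 90 of 91 calls were higher in MEC, and through LEC alone 170 of 171 were lower. The calls of Pcdhb3, Pcdhb4 and Cdh4 are therefore given as descriptions. Of the 31 members kept through both regions, 11 passed, 3 higher in MEC and 8 lower, against 26.7% of the 10868 probes kept in the same way. The offset of 50 added before taking logs holds a spot at background near 5.8, so differences of dim probes are understated on this scale. With an offset of 16, the difference of Pcdhb3 was 0.60 in place of 0.30 and that of Cdh4 −1.05 in place of −0.64. With the scanner software's own processed signals these differences were 1.03 and −1.99. There the arrays were also centred on their median in place of the quantile step. The 26 kept members that did not pass had differences of −0.16 to 0.20, with 95% intervals within −0.36 to 0.44.

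On this scale the widest differences were those of the delta protocadherins Pcdh8, Pcdh1 and Pcdh9. The order depended on the scale: with processed signals Cdh4 (−1.99) came after Pcdh8 (−2.82) and before Pcdh1 (−1.48), Pcdh19 (−1.46) and Pcdh9 (1.17), and with arrays centred on their median a Pcdhac2 probe (−0.98) was wider than Pcdh9 (0.59). The promoters of Pcdh8, Pcdh9 and the type II cadherin Cdh20 are shown because these 3 genes had the smallest p-values among the members. The sequences are RefSeq's, build GRCm38.p6, and run from 250 bases before to 50 bases after the annotated start, which is the first entry listed for a gene. Capitals mark matches on either strand to 5 motifs. The TATA box was searched as TATAAA. The CCAAT box was searched by the letters of its name. The GC box was searched as GGGCGG. The cAMP response element was searched as TGACGTCA. The E-box was searched as CACGTG. The 3 regions are Pcdh8 at chr14:79771263-79771562 on the minus strand, Pcdh9 at chr14:93890630-93890929 on the minus strand and Cdh20 at chr1:104768270-104768569 on the plus strand.
Pcdh8: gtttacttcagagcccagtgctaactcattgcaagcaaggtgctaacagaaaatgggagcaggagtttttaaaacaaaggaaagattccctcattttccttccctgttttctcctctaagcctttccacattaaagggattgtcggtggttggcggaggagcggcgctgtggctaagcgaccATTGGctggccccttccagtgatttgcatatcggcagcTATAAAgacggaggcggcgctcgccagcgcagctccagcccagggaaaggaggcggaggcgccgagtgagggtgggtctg
Pcdh9: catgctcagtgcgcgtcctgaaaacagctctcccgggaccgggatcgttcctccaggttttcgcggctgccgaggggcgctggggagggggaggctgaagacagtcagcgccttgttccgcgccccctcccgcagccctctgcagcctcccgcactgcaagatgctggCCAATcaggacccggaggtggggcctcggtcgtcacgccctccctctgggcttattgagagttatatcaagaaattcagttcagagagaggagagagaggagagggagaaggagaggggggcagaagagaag
Cdh20: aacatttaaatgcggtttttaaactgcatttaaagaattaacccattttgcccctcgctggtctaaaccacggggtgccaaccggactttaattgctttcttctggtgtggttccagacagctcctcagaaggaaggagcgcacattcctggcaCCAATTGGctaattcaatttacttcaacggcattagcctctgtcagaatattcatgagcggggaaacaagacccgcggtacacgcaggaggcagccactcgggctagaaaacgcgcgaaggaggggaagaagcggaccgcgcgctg
The Pcdh8 window holds 1 TATAAA and 1 CCAAT match, the Pcdh9 window 1 CCAAT match, and the Cdh20 window 2 CCAAT matches that overlap, one on each strand, inside CCAATTGG. Of 32851 promoter windows of this length, 13.6% hold TATAAA, 37.4% CCAAT, 35.7% GGGCGG, 7.15% CACGTG and 1.79% TGACGTCA. Their CpG counts were 14 in Pcdh8, 18 in Pcdh9 and 18 in Cdh20, against a median of 7 over all windows. Of all windows, 63.7% held fewer CpGs than Pcdh8 and 70.3% fewer than Pcdh9 or Cdh20. Windows of 7 called genes were read, with 14 to 30 CpGs. A match is a description of these letters and shows no binding.

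Pcdh8 (arcadlin in the rat, where synaptic activity induces it, and known there to draw N-cadherin away from the synapse) was lower in MEC. Its probe A_51_P274488 lies at chr14:78501076-78501135 in build mm8, the build of all probe positions here. Its level was 6.46, 6.87 and 6.69 in the MEC pairs, against 7.97, 8.30 and 8.51 in the LEC pairs. Every MEC pair lay more than 1 log2 unit below every LEC pair. The difference was −1.59 ± 0.15 (SE, n = 3 pairs a region, adjusted p = 0.00064), which is 3.01-fold lower in MEC. It passed under each of the 20 alternative settings, with values of −2.82 to −1.39, and on mutant and control channels taken alone it was −1.79 and −1.39.

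Pcdh19, a delta-2 protocadherin that forms complexes with N-cadherin and whose human counterpart is mutated in an X-linked epilepsy, was lower in MEC too. Probe A_52_P432969 (chrX:128934167-128934226) read 6.13, 6.37 and 6.28 in MEC, against 6.70, 6.90 and 6.81 in LEC. Pair means of the regions did not overlap, and the difference was −0.54 ± 0.08 (SE, adjusted p = 0.0026). Pcdh17, a delta-2 member found at synapses of corticobasal circuits in the mouse, was read by a pair of kept probes that differed in sign. Probe A_52_P111031 (chr14:83342078-83342137) gave 7.19, 7.31 and 7.08 in MEC and 7.51, 7.77 and 7.39 in LEC, a difference of −0.36 ± 0.10 (SE, adjusted p = 0.033). Probe A_51_P131747 (chr14:83344921-83344980) gave 6.41, 6.34 and 6.36 in MEC and 6.25, 6.25 and 6.23 in LEC, a difference of 0.13 (adjusted p = 0.068). The call of the first was lost without MEC replicate 1 or 3, without LEC replicate 1 or 2, and in 3 other settings; its value was −0.26 without LEC replicate 2.

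Pcdh10, a delta-2 protocadherin that recruits the WAVE complex in growing axons, was read by probes on either side of 0, and neither passed. Probe A_52_P78439 gave 6.07, 6.14 and 6.04 in MEC and 6.21, 6.19 and 6.15 in LEC, a difference of −0.10. Probe A_51_P209150 gave 6.24, 6.24 and 6.28 in MEC and 6.17, 6.24 and 6.15 in LEC, a difference of 0.06. In all, 3 of the 6 kept delta-2 probes passed, each lower in MEC, where 13.2% of all kept probes were lower, and the class median was −0.23.

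Pcdh1, a delta-1 protocadherin known from epithelia, was also lower in MEC. Probe A_51_P239257 read 8.68, 8.81 and 9.29 in MEC, against 10.30, 9.88 and 9.86 in LEC. Pair means did not overlap, with a difference of −1.09 ± 0.17 (SE, adjusted p = 0.0038), or 2.12-fold lower in MEC. On control channels alone the value was −0.98 and did not pass (adjusted p = 0.18).

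Pcdh9, another delta-1 protocadherin, went the other way. Its probe A_51_P475704 (chr14:91897343-91897402) read 7.76, 7.96 and 7.64 in MEC and 6.88, 6.69 and 6.86 in LEC, with no overlap. The difference was 0.98 ± 0.09 (SE, adjusted p = 0.00064), or 1.97-fold higher in MEC, and it was 0.59 to 1.25 in the 20 alternative settings. It passed in 19 of them, and on control channels alone it was 1.03 and did not pass (adjusted p = 0.058). The other kept Pcdh9 probes, A_52_P461777, A_52_P197199 and A_51_P432432, lie in chr14:92766559-92770090, well away from it on the same chromosome. They were dim, at 6.02, 6.11 and 6.03 in MEC and 5.92, 6.03 and 5.96 in LEC, and their differences of 0.10, 0.08 and 0.07 did not pass. Much nearer to the called probe lies A_51_P124262 (chr14:91898442-91898501), also named for Pcdh9. It was well above background in only 1 of 24 readings and was not kept. So 1 of 4 kept Pcdh9 probes carried the call, with all 4 above 0. Of these, A_52_P461777 and A_51_P432432 had been kept through MEC alone, so the filter fixed their direction in part.

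Among the classical cadherins, type II members stood on both sides. Cdh20 was higher in MEC: probe A_52_P436564 (chr1:106822801-106822860) read 7.30, 7.40 and 7.26 in MEC and 6.72, 6.65 and 6.65 in LEC. Every MEC pair was above every LEC pair. Its difference was 0.65 ± 0.05 (SE, adjusted p = 0.00053), or 1.56-fold higher in MEC. It had the smallest p among the members and passed in all 20 alternative settings, at 0.29 to 0.90.

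Cdh8, a type II cadherin involved in matching synaptic partners, read 6.82, 6.98 and 7.02 in MEC and 6.67, 6.60 and 6.77 in LEC (probe A_51_P290886, difference 0.26 ± 0.07, SE, adjusted p = 0.029). This call depended on the scaling: with arrays centred on their median it was −0.06, with the 75th percentile 0.02 and with processed signals 0.19, none of which passed, and it was also lost without MEC replicate 2 or 3 or LEC replicate 1 or 2. Cdh24, a type II cadherin that binds catenins, read 6.37, 6.46 and 6.61 in MEC and 6.92, 6.76 and 6.65 in LEC (probe A_52_P487573). Its difference was −0.30 ± 0.08 (SE, adjusted p = 0.035), and the nearest pairs of the regions were 6.61 in MEC and 6.65 in LEC. It did not pass in 9 of 20 alternatives, among them those without MEC replicate 1 or 2 and without LEC replicate 1 or 2. The other kept type II members, Cdh7, Cdh11 and Cdh22, had differences of 0.01, 0.06 and −0.09.

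Of the type I cadherins, Cdh4 (R-cadherin) was lower in MEC. Probe A_52_P402897 (chr2:179828521-179828580) read 5.94, 6.16 and 6.15 in MEC and 6.55, 6.70 and 6.90 in LEC. It was well above background in 5 of 12 MEC readings and in all 12 LEC readings, and its difference was −0.64 ± 0.10 (SE, adjusted p = 0.0036). It had been kept through LEC alone, and with no filter on dim probes its adjusted p was 0.0065 over all probes (limma). That fit shares its spread with the dim probes it adds, so the value is a description and adds no support to the call. On mutant channels alone the difference was −0.94 and on control channels alone −0.33, and neither passed (adjusted p = 0.058 and 0.16). Cdh2, the N-cadherin of neuronal synapses, read 6.43, 6.62 and 6.82 in MEC and 6.40, 6.59 and 6.69 in LEC, with overlapping groups and a 95% interval of −0.18 to 0.31 around 0.06. Cdh3 (P-cadherin) and Cdh15 (M-cadherin of muscle) were dim, with differences of 0.00 and −0.15.

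Cdh13 (T-cadherin), which is tied to the membrane by a lipid anchor and lacks the catenin-binding tail, was lower in MEC, at 7.24, 7.10 and 6.96 against 7.36, 7.53 and 7.84 in LEC. The nearest pairs were 7.24 in MEC and 7.36 in LEC, and the difference was −0.48 ± 0.12 (SE, probe A_51_P114826, adjusted p = 0.025). The call was lost without MEC replicate 2 or 3 and without LEC replicate 2, where it was −0.50 (adjusted p = 0.051). It was also lost with no filter on dim probes and on mutant or control channels alone, 6 of 20 settings in all. The other cadherins of this class, Cdh16, Cdh17, Cdh23 and Cdh26, had no kept probe.

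For the gene clusters on chromosome 18 the shares called lay near the 24.3% of all kept probes. In the alpha cluster 1 of 5 kept probes passed, in the beta cluster 2 of 8 and in the gamma cluster 1 of 4, with class medians of 0.01, 0.03 and −0.14. Isoforms of the alpha cluster, and likewise those of the gamma cluster, share constant exons at their 3′ ends, so a probe placed there reads more than the gene it is named for. Beta genes resemble each other closely. Whether the probes here read 1 isoform was not tested, since probe sequences and an annotation of build mm8 were not used here.

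Pcdhac2, the last variable exon of the alpha cluster, had 3 kept probes of differing sign. Probe A_52_P404535 (chr18:37311078-37311137) read 7.16, 7.40 and 7.27 in MEC and 7.77, 7.77 and 7.89 in LEC, a difference of −0.54 ± 0.07 (SE, adjusted p = 0.0020). Probe A_51_P488953 (chr18:37313337-37313396) read 6.83, 6.97 and 6.87 in MEC and 6.74, 6.60 and 6.76 in LEC, a difference of 0.19 (adjusted p = 0.057) that was −0.12 with arrays centred on their median. Probe A_52_P632669 was nearly level, at 6.44, 6.45 and 6.46 in MEC and 6.38, 6.44 and 6.46 in LEC (difference 0.02). It lies at chr18:37282140-37285250, at lower coordinates than the others, and whether those read exons shared by the cluster was not tested. The kept probes of Pcdha6 and Pcdha9 had differences of 0.01 and −0.04.

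In the beta cluster, Pcdhb3 and Pcdhb4 were higher in MEC. Pcdhb3 (probe A_51_P109295, chr18:37429684-37429743) read 6.16, 6.26 and 6.18 in MEC and 5.92, 5.91 and 5.85 in LEC, a difference of 0.30 ± 0.05 (SE, adjusted p = 0.0044). Pcdhb4 (probe A_52_P529195, chr18:37436344-37436403) read 6.29, 6.19 and 6.24 in MEC and 6.01, 6.02 and 6.00 in LEC, a difference of 0.23 ± 0.05 (SE, adjusted p = 0.0098). Neither overlapped between regions, and both had been kept through MEC alone. With no filter on dim probes their adjusted p-values were 0.0036 and 0.0070 over all 41174 probes (limma). As for Cdh4, these are descriptions and add no support to the calls. Both were dim in LEC, with 1 and 4 of 12 LEC readings well above background, against 8 and 10 in MEC. Pcdhb17 had probes of either sign, neither past the threshold: A_52_P180741 read 6.11, 6.15 and 6.08 in MEC and 6.23, 6.22 and 6.06 in LEC (difference −0.06), and A_51_P337771 read 6.62, 6.90 and 6.83 in MEC and 6.72, 6.77 and 6.80 in LEC (difference 0.02). The rest of the kept beta probes, for Pcdhb7, Pcdhb20, Pcdhb21 and Pcdhb22, had differences of −0.03, 0.20, −0.05 and 0.04.

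In the gamma cluster, the kept probes named for Pcdhga9 overlap each other. They lie at higher coordinates than the Pcdhga12 probe (chr18:37895870-37895929) and than a Pcdhga9 probe that was not kept (chr18:37865451-37865510). Their differences may therefore not be those of Pcdhga9 alone, which was not tested. A_51_P470769 (chr18:37967676-37967735) read 8.29, 8.52 and 8.23 in MEC and 8.59, 8.57 and 8.62 in LEC, a difference of −0.25 ± 0.07 (SE, adjusted p = 0.046). A_51_P474518 (chr18:37967696-37967755) read 8.14, 8.41 and 8.22 in MEC and 8.29, 8.41 and 8.55 in LEC, a difference of −0.16 that did not pass (adjusted p = 0.22). The first call was lost in 13 of 20 alternatives, including each removal of a pair other than MEC replicate 2. Pcdhga7 and Pcdhga4 had differences of −0.12 and 0.05.

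Of the 6 genes with several kept probes, 4 had probes of both signs (Pcdhac2, Pcdh17, Pcdh10 and Pcdhb17) and 2 did not (Pcdh9 and Pcdhga9). A difference named for such a gene is that of the probe given.

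How genes that work with the cadherins compared was read from 3 lists. Of 10 kept catenin probes, 1 was higher in MEC and 2 were lower, against 11.2% and 13.2% of all kept probes. Both lower probes had been kept through LEC alone, with 2 and 3 of 12 MEC readings well above background, so the filter fixed their direction in part. Pkp4, an armadillo protein of the p120-catenin family, read 8.79, 8.74 and 8.64 in MEC and 8.39, 8.39 and 8.53 in LEC, a difference of 0.29 (adjusted p = 0.011). Ctnnd1 (p120-catenin, which holds classical cadherins at the surface) differed by −0.21, and Ctnnb1 (beta-catenin) by −0.16 at probe A_51_P272046 and by −0.18, not past the threshold, at its other kept probe. Of 10 probes for related large cadherins, only Celsr3, a seven-pass cadherin of planar polarity and axon guidance, passed: it read 6.29, 6.25 and 6.23 in MEC and 5.97, 6.04 and 6.02 in LEC, a difference of 0.25 (adjusted p = 0.0069), and had been kept through MEC alone. Fat1, at −0.34, and the calsyntenin Clstn1, at −0.23, had the next smallest p-values and did not pass.

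Among 21 probes for regulators and binding partners, 4 were higher in MEC and 3 lower, against 11.2% higher and 13.2% lower of all kept probes. Higher were the cohesin subunits Rad21 (0.28) and Stag2 (0.28, with 0.07 and no call at its other kept probe), cohesin being the complex that with CTCF selects clustered protocadherin promoters, and the WAVE complex members Abi1 (0.25) and Wasf3 (0.36). Lower were Wasf1 (−0.21), also a WAVE complex member, Ptk2b (−0.16, with −0.07 and no call at its other kept probe) and Taok2 (−0.24). The kept probes of other cohesin and WAVE complex members did not pass: Smc1a (−0.05), Stag1 (−0.11 and 0.03), Cyfip2 (0.24) and Abi2 (0.04 and −0.08). Ptk2b is a kinase that clustered protocadherins bind and restrain, and Taok2 is the kinase through which rat arcadlin acts on N-cadherin. Taok2 probe A_52_P566005 read 6.96, 6.99 and 7.16 in MEC and 7.20, 7.31 and 7.32 in LEC, without overlap, as did 42.9% of all kept probes. Its other kept probe, A_51_P187184, read 6.37, 6.24 and 6.36 in MEC and 6.36, 6.46 and 6.39 in LEC, with overlap, and its difference of −0.08 did not pass. The lists' medians were −0.01 for catenins, −0.03 for related cadherins and 0.01 for regulators, against −0.02 for all kept probes. These lists were not recomputed under other scalings of the arrays.

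Markers of other cells differed between the regions as well. The counts below stand against 11.2% higher and 13.2% lower in MEC of all kept probes. Of 8 kept oligodendrocyte marker probes, 5 were higher in MEC and 1 lower; their summed signal was 1390 to 1772 in MEC and 1001 to 1186 in LEC, with Mobp at a difference of 0.67 and the Mbp probes at 1.05 and −0.97. Of 7 inhibitory neuron probes 3 were higher in MEC (Pvalb, Gad1 and Slc32a1, at 0.55, 0.31 and 0.42) and Sst was lower (−0.88). The other kept Gad1 probe (0.18), Gad2 (0.04) and Vip (0.04) did not pass. Of 4 kept excitatory neuron probes Neurod6 was higher (1.15) and Nrgn lower (−1.16), 1 of 8 microglial probes was lower, and none of the 24 kept probes for astrocytes, vessels, meninges, choroid plexus and blood passed. Markers of entorhinal layers and region also moved, with 6 of 12 higher in MEC (such as Lef1, 1.47, and Reln, 0.60) and 2 lower (Calb1, −0.94, and Ctgf, −0.62). Their part in the cadherin and protocadherin differences was not tested, and fewer cells of a type and less RNA per cell cannot be told apart in captured pools.

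The mutant was compared with the control as the log2 ratio of Naglu-/- over Naglu+/- in each pair. No member passed in MEC, in LEC, in the average of both regions or in the difference of the ratios between regions. The background was 0% of all 12987 kept probes in each of these 4 comparisons (limma). At an unadjusted p of 0.05, 0 members passed in MEC, 1 in LEC, 1 in the average and 0 in the difference, against 135, 199, 274 and 71 of all kept probes. Member medians were 0.00, 0.03, 0.01 and −0.02 in the same order, and all kept probes had 0.00, 0.01, 0.00 and −0.01. The 95% intervals of the members' average ratios had a median width of 0.33 and reached as far as −0.89 and 0.70, so smaller changes were not detectable with 3 pairs a region.

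The median member ratio was −0.01, −0.13 and 0.13 in the MEC pairs and −0.01, 0.07 and −0.01 in the LEC pairs, against −0.05 to 0.05 for all kept probes. Delta-2 protocadherins had medians of 0.03, −0.21 and 0.24 in the MEC pairs, and the gamma cluster −0.07, −0.18 and 0.12, with pairs 2 and 3 on opposite sides. Of the 40 members, 0 kept a single sign across the 6 pairs, against 1.81% of all kept probes. Turning replicate 2 as labelled, 5 members did (Cdh11, Cdh24, Pcdh1, Pcdhb22 and the Pcdhac2 probe A_52_P404535), against 7.48% of all kept probes.

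Cdh4 was the member with the smallest p in LEC, in the average and in the difference between regions. Its ratio was 0.20, −0.31 and 0.30 in the MEC pairs, and 0.13, 0.70 and 1.19 in the LEC pairs, all of the LEC values above 0. The mean was 0.67 in LEC (95% interval 0.21 to 1.14, unadjusted p = 0.011, adjusted p = 1.00, limma) and 0.37 averaged over both regions (0.04 to 0.70), while the difference between regions was −0.61 (−1.27 to 0.05). With replicate 2 turned as labelled its LEC mean was 0.21, and without LEC replicate 3 it was 0.42.

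Other members of small p in LEC spread over 0 or lay close to it. Cdh20 had ratios of −0.01, 0.15 and 0.04 in MEC, and of −0.47, 0.10 and −0.40 in LEC, where the mean was −0.26 with a 95% interval of −0.52 to 0.01. Pcdh8 had −0.23, −0.57 and 0.25 in MEC and 0.31, −0.12 and 0.48 in LEC, a difference between regions of −0.40 with a 95% interval of −0.97 to 0.16. Both intervals hold 0.

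The remaining LEC members of this rank were Pcdh10, Pcdhac2 and Pcdhb17. Pcdh10 probe A_52_P78439 had −0.02, −0.16 and 0.23 in MEC and −0.05, 0.29 and 0.22 in LEC. Pcdhac2 probe A_51_P488953 had 0.10, −0.17 and 0.22 in MEC and −0.10, −0.01 and −0.33 in LEC. Pcdhb17 probe A_51_P337771 had 0.21, −0.13 and 0.21 in MEC and 0.00, −0.35 and −0.10 in LEC. None of the 3 had an unadjusted p under 0.05 in any of the 4 comparisons.

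In MEC the smallest p-values belonged to Pcdh10 probe A_51_P209150 (0.02, 0.21 and 0.10 in the MEC pairs) and to Cdh24 (−0.09, 0.05 and −0.41), with means of 0.11 and −0.15. Pcdhb4 had 0.01, −0.14 and −0.08 and Cdh3 had −0.02, −0.06 and −0.15 in MEC. Pcdh1 spread widest, at −0.14, 0.41 and −1.42 in MEC and −0.75, 0.64 and −0.40 in LEC. In both regions its pair 2 stood on the other side of 0 from the rest, and its MEC mean of −0.38 had a 95% interval of −1.25 to 0.49. In the average over both regions, Cdh2 had −0.07, −0.34 and 0.19 in MEC and −0.13, −0.34 and 0.12 in LEC, and in the difference Pcdhga7 had 0.02, −0.06 and −0.06 in MEC and −0.03, 0.21 and 0.08 in LEC.

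Among the 3 members of smallest p in MEC minus LEC, Pcdh9 had mutant ratios of −0.01, −0.80 and 0.55 in MEC and −0.02, 0.51 and −0.47 in LEC, averaging −0.04 with a 95% interval of −0.48 to 0.40. Pcdh8 averaged 0.02 (−0.26 to 0.30) and Cdh20 −0.10 (−0.29 to 0.09).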

How the data were processed

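The authors deposited Agilent scanner files with, per spot and dye, mean signal and local background as raw intensity, processed intensity values after the software's own background subtraction and dye normalisation, a log10 ratio of Cy5 over Cy3, and flags of 0 or 1. Per the file headers the software was Feature Extraction 9.5.1.1; the submitters' processing notes name 8.5.1.1. The authors' deposited values, 1 column an array, are log2 ratios, with centring and direction not stated; it was compared with each array over 9166 bright spots and matched one array per column with a correlation of 0.995 to 0.999 in size (0.657 at most for any other).

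The work used R 4.3.3, limma 3.58.1 and version 1.17.8 of the data.table package. Local background was corrected by normexp (offset 50) and dyes by loess within arrays; levels were then quantile-normalised. Replicate spots and then both arrays of each pair were averaged, giving 3 pair means a region, and each limma fit shared its spread over both regions. P-values are two-sided and adjusted by Benjamini-Hochberg over 12987 kept probes, with a threshold of 0.05. The number of arrays limits precision. Scripts were tested on simulated data. All kept members were described by class. Values per pair were given for members past the threshold, the 12 of smallest p in level, the 6 in each ratio comparison and probes of differing sign. Of the members, 78 were named by accession and 36 by symbol. The members and lists were chosen with earlier results of these data known. MEC and LEC replicates of 1 number did not deviate together (correlations of −0.06, 0.01 and −0.02 in level), so no block was used. Alternatives covered background, scaling, filter, dye, genotype, assignment and replicates.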

Additional observations from a re-analysis of the deposited data

How the results depend on the processing

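The MEC minus LEC count of 3162 probes, 45.8% of them higher in MEC, depended on scaling. It was 6758 (2.80% higher, median of all probes −0.17) with arrays centred on the median, 4997 (9.75% higher, median −0.10) with the 75th percentile and 4352 (10.4% higher, median −0.28) with processed signals, where 20, 15 and 19 members passed in place of 14 (4, 5 and 5 of them higher). It was 452 on mutant channels alone, with 4 members (Cdh20, Pcdh8, Pcdh9 and Pcdh1), and 614 on control channels alone, with 2 members (Cdh20 and Pcdh8). Without a filter 13 of 114 members passed, against 8.06% of all probes. With files as labelled, 17 of 40 members passed (7 higher, 10 lower), against 4057 or 31.2% of all kept probes. Leaving out 1 pair gave 1961 (without MEC replicate 1) to 2896 probes, 2018 without LEC replicate 2, and 9 (without LEC replicate 2) to 14 members. The replicate block gave 2767 probes and 12 members, and 0 in each ratio comparison. Slide or scan could not be fitted as a block, since no scan day held both regions and each slide held 1 array.

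Mutant ratio counts of 0 became 1 in the average with an offset of 16, and 7 in MEC, 1 in LEC and 2 in the average with 12 arrays as units, and ranged from 0 to 1 in MEC and in the average when a pair was left out; no member was among them.

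Signs turned as follows. With median centring the level differences were −0.06 for Cdh8, −0.12 and −0.18 for Pcdhac2 (A_51_P488953, A_52_P632669) and −0.02 for Pcdh17 (A_51_P131747); with the 75th percentile the Pcdhac2 probes had −0.04 and −0.10, and with processed signals the second had −0.26. With replicate 2 turned as labelled, MEC ratios were −0.03 for Pcdh10 (A_51_P209150), 0.20 for Pcdh8 and 0.02 for Pcdhb4, as also with files and dyes as labelled; LEC ratios were −0.04 for Pcdh10 (A_52_P78439) and 0.08 for Pcdhb17, averages were 0.13 for Cdh2 and −0.06 for Pcdh10, and differences were 0.06 for Cdh4 and 0.07 for Pcdhga7. With files and dyes as labelled, LEC ratios were 0.04 for Cdh20 and −0.03 for Pcdh8, the Cdh2 average was 0.02, and differences were −0.08 for Cdh20, 0.03 for Cdh4 and 0.23 for Pcdh8. Without replicate 2 of both regions, Pcdh8 in MEC was 0.01 and the Cdh2 average 0.03. Leaving out 1 pair moved the MEC ratio of Pcdh8 between −0.40 and 0.01 and that of Pcdh1 between −0.78 and 0.14. The causes were not tested.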
